A study of Mus musculus with 6 samples.

Results

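Footprints of Argonaute (Ago), the protein that carries microRNAs (miRNAs) to their target mRNAs, were examined on genes of 10 families of RNA-binding proteins, RNA helicases, splicing factors and translation initiation factors. The families were taken by gene symbol, as those starting with Hnrnp, Srsf, Ddx, Dhx, Rbm, Celf, Pum, Cpeb, Pcbp or Eif, leaving out Rbm47, Hnrnpd and the Eif2c genes. Of the 6270 footprints in the table, 152 overlapped such a gene on its own strand. They lay on 54 genes, out of 2223 genes with a footprint and 193 annotated protein-coding genes of these families. The footprints came from Ago HITS-CLIP, the sequencing of RNA cross-linked to Ago and recovered with the antibody 2A8. The cells were macrophages grown from bone marrow of C57BL/6 mice, littermates aged 6 to 12 weeks, and matured for 7 days with M-CSF. There were 3 libraries from wild-type mice (WT) and 3 from Apobec1-/- mice (KO), labelled as lacking an enzyme of C-to-U mRNA editing, with the animals taken as 3 littermate pairs. The deleted part of Apobec1 is not named in the labels, and all cells of the animal carry the deletion. Apobec1 itself had 3 footprints in the table, each held by 2 WT libraries and by 2 or 3 KO libraries. Their occupancy was 0.174, 0.113 and 0.0250 in KO and 0.181, 0.144 and 0.0462 in WT, so RNA of this gene was recovered from the KO libraries too. A footprint outside the deleted part does not check the genotype.

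Occupancy is the authors' ratio of footprint signal to RNA-Seq expression of the transcript. The table gives 1 value per genotype and the number of that genotype's 3 libraries that held the footprint. The value of each library and its depth are not in the table used here, so a KO to WT difference has no replicate check, no error and no test. A log2 ratio of KO over WT is given with a pseudocount of 0.00161 added to both values, and the word 2-fold refers to a ratio of at least 1 on that scale. Of the marker genes checked against the label, 5 of 7 macrophage markers had footprints, among them Csf1r, Itgam and Fcgr1. The macrophage markers Cd68 and Mertk had no footprint. None of the 16 markers of T cells, B cells, neutrophils, fibroblasts and dendritic cells had one. Lack of a footprint does not show lack of expression, so these counts do not settle the cell type.

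As background, proteins of these families act at each step of an mRNA's life. The hnRNP and SR proteins bind nascent transcripts and steer splicing, often against each other. DEAD-box (Ddx) and DEAH-box (Dhx) helicases remodel RNA and RNA-protein complexes. Pumilio, CELF and poly(C)-binding proteins sit on 3′ UTRs and affect decay and translation, and eIF proteins load the ribosome. Many of these genes carry long conserved 3′ UTRs, through which miRNAs can in turn limit the protein.

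The sequences that follow show where a miRNA could pair in some footprints of the named genes that at least 2 libraries of both genotypes held. Each site is a 7-nt match to bases 2 to 8 of a miRNA, which are called its seed. The mature miRNAs, taken from RefSeq (GRCm38.p6), are written 5′ to 3′ with the seed in capitals.
miR-148a-3p: uCAGUGCAcuacagaacuuugu
miR-29a-3p: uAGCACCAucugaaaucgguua
miR-15a-5p: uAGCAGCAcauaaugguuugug
miR-103-3p: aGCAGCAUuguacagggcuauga
miR-21a-5p: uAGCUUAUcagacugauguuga
miR-125a-5p: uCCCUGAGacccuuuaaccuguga
miR-223-3p: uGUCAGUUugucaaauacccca
miR-30a-5p: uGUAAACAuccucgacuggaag

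The matching stretches of the footprints were read from the mm9 genome on the transcript's strand, at most 30 bases each and ending at the footprint's edge. Capitals mark the 7 bases opposite the seed. The seeds of miR-15a-5p and miR-103-3p overlap by 6 bases when shifted by 1, so that in Hnrnpa2b1 a single stretch matches both.
Celf1, miR-148a-3p, chr2:90855228-90855257, plus strand: aaccacgtaaacttgaattctgTGCACTGg
Ddx58, miR-148a-3p, chr4:40152729-40152758, minus strand: acaatcctttcttacacaagccTGCACTGt
Ddx58, miR-29a-3p, chr4:40152684-40152713, minus strand: acctgactggttggtttcaagcTGGTGCTg
Eif4g1, miR-15a-5p, chr16:20692867-20692896, plus strand: gccccagcccctgcaccaccccTGCTGCTg
Hnrnpa2b1, miR-15a-5p, chr6:51412546-51412558, minus strand: ttagaTGCTGCTt
Eif5, miR-103-3p, chr12:112782839-112782868, plus strand: tgcaacttagcttaacagtgtaATGCTGCa
Rbm25, miR-21a-5p, chr12:85022757-85022785, plus strand: cacagactactggtgtgttttATAAGCTg
Ddx17, miR-125a-5p, chr15:79365974-79365986, minus strand: attcaCTCAGGGg
Ddx17, miR-223-3p, chr15:79360211-79360240, minus strand: aagaaaaaatatatatacacatAACTGACt
Srsf7, miR-30a-5p, chr17:80600845-80600867, minus strand: agggaaaagttatttTGTTTACa

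The Ddx17 footprint with the miR-125a-5p match lay in an intron. The Eif5 and Srsf7 sites also had an A opposite the first base of the miRNA. The printed sites of Hnrnpa2b1, Eif4g1 and Srsf7 did not lie wholly within the central 46 nt of their footprints. Nor did the miR-125a-5p site of Ddx17 and the miR-29a-3p site of Ddx58. A match of letters does not show that the miRNA was bound there.

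Across the families, occupancy in KO was lower than in WT for more footprints than it was higher. Median KO occupancy was 0.335, with quartiles of 0.129 and 0.788, and median WT occupancy 0.440, with quartiles of 0.254 and 0.882. Over the whole table the medians were 0.377 and 0.406. The KO value was higher for 57 footprints and lower for 95, a share of 37.5% higher against 48.7% in the whole table. The median log2 ratio was -0.30, with a 95% order-statistic interval from -0.66 to -0.10 over footprints, and it was -0.04 for all 6270. Footprints of a gene come from the same transcripts and libraries, so they are not independent and the interval does not stand for replicate error. By family, lower footprints outnumbered higher ones most in Srsf (18 lower and 2 higher) and Hnrnp (16 and 4). They did not in Rbm (8 and 9), Eif (15 and 16) or Dhx (1 and 1).

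At the 2-fold mark, 14 family footprints (9.21%) were higher in KO, where 18.9% of the whole table were. A further 47 (30.9%) were lower, where 24.2% of the whole table were. Summed per gene, 3 of 54 genes (Eif4g1, Rbm14 and Rbm25) were at least 2-fold higher, beside 11.7% of all genes, and 11 were at least 2-fold lower (20.4%), beside 17.9%. In all, 16 genes had a higher sum in KO and 38 a lower one, a share of 29.6% higher against 47.8% of the 2223 genes.

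**Figure D1:**
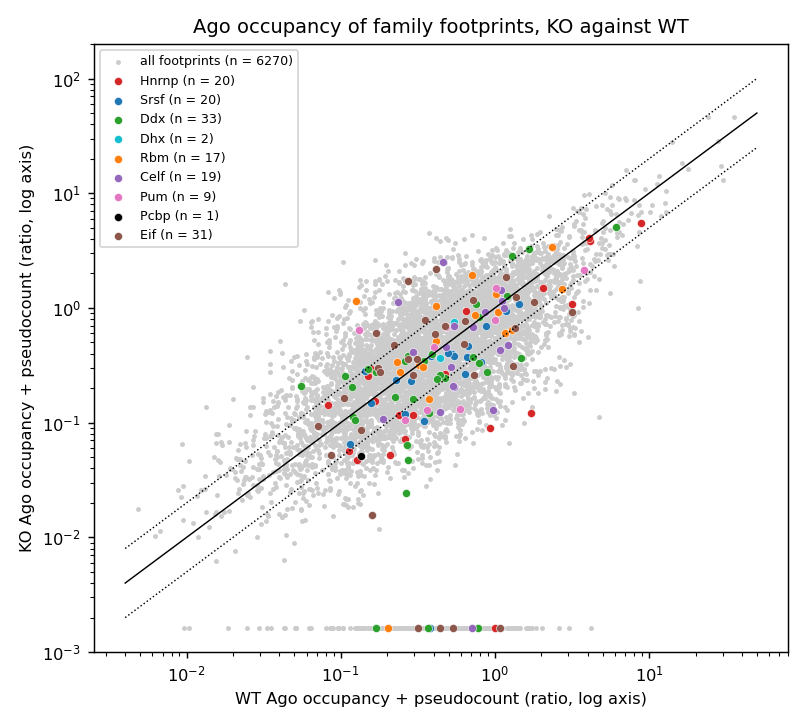
Ago occupancy plus pseudocount in WT (horizontal) and KO (vertical), both ratios on log axes, with 1 point per footprint and family footprints coloured over the whole table in grey. The solid line marks equal values and the dotted lines 2-fold, and the row of points at the bottom holds footprints listed at 0 in KO, 11 of them on the families.

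The number of libraries that held a footprint moved with these values. No KO library held 51 of the family footprints (33.6%, against 27.9% of the whole table), and at least 2 KO libraries held 46 (30.3%, 95% Wilson interval 23.5% to 38.0%), against 40.1% of the whole table. This interval, like the other Wilson intervals given here, treats footprints as independent, which they are not. It does not stand for replicate error. In WT, at least 2 libraries held 149 of 152. The table keeps footprints held by at least 2 libraries of 1 genotype, and 106 of the family footprints entered through WT alone while 3 entered through KO alone. In the whole table these numbers were 3753 and 321. The part of this imbalance in the ratios was not tested. Of the 51 footprints that no KO library held, 40 still had a KO value above 0. The sources used here do not state how these values were made. Exact ties with some other footprint of the table were found for 54 of the KO values above 0 (38.3%, against 33.3% in the whole table).

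Without the footprints that no KO library held, 52 were higher and 49 lower in KO, with a median log2 ratio of 0.0072, against 0.29 for the whole table under the same condition. This condition was chosen after the values were seen. Among the 43 that at least 2 libraries of both genotypes held, the median was 0.37, against 0.42 for the whole table. The direction of the families' median thus depended on which footprints were kept. It stood below the whole table's median in both sets. For footprints held by 0, 1, 2 and 3 KO libraries, the families' median was -1.45, -0.08, 0.53 and -0.15. In the whole table it was -1.32, -0.04, 0.55 and 0.53. All 6 libraries held 8 of the footprints, of which 7 were lower in KO, among them those of Hnrnpu, Hnrnpa2b1, Ddx58, Srsf1, Srsf2 and Eif4g2. That of Celf2 was higher. None of the 8 differed 2-fold. Their median was -0.31, against 0.13 for the 369 such footprints of the whole table.

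**Figure D2:**
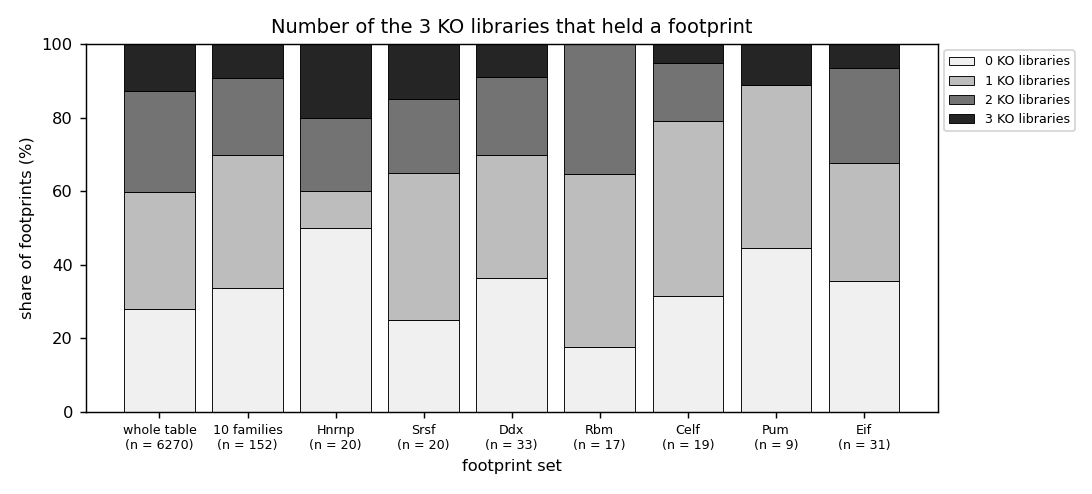
Share of footprints (vertical, percent) held by 0, 1, 2 or 3 of the KO libraries, for the whole table, for the 10 families together and for each family with at least 9 footprints. The pale part, no KO library, takes 27.9% of the whole table and 33.6% of the family footprints, and is largest for Hnrnp with 10 of 20.

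The hnRNP genes, whose products package nascent RNA, gave 20 footprints on 9 of 17 annotated genes. Of these footprints 16 (80.0%) were lower in KO, beside 51.3% of the whole table. At least 2 WT libraries held all 20 and at least 2 KO libraries held 8, so the others entered the table through WT alone. By summed occupancy 8 of the 9 genes were lower, beside 1160 of all 2223 genes. At least 2-fold lower were 5 of the 9, beside 17.9% of all genes. With a pseudocount of 1 the ratios of these 5 ran from -0.98 to -0.20, short of 2-fold. The strongest footprint of the 10 families was that of Hnrnpu, a nuclear scaffold protein, with 5.55 in KO and 8.88 in WT. It lay in the 3′ UTR (chromosome 1, 180259244 to 180259307, minus strand), 213 nt past the stop codon, and was held by all 6 libraries. Its log2 ratio was -0.68.

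Hnrnpa2b1, a splicing and RNA-transport factor, had 6 footprints with summed occupancy of 10.1 in KO and 13.1 in WT. The pair with the highest values were near equal between genotypes, at 4.08 in KO and 4.10 in WT (chromosome 6, 51412638 to 51412708) and at 3.86 and 4.16 (51411484 to 51411553, all 6 libraries). One between them, at 51411982 to 51412048, had 1.07 in KO against 3.17 in WT (-1.56) and was held by 2 KO and 3 WT libraries. Another, at 51411210 to 51411281, had 0.0891 and 0.923 (-3.35), and no KO library held it. Unequal ratios thus stood side by side on a single annotated 3′ UTR. Whether these footprints share 1 expression divisor is not known from the sources used here, and the cause was not tested.

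Hnrnpab, which binds RNA in nucleus and cytoplasm, went from 2.08 in WT to 0.560 in KO by sum (-1.89). That sum rested on 1 footprint, at 1102 nt past the stop codon, with a WT occupancy of 1.72 and a ratio of -3.82. All 3 WT libraries and no KO library held it, and its KO value was shared with another footprint. Of the other 3, those with 0.255 and 0.140 in KO and 0.150 and 0.0810 in WT were higher in KO (0.76 and 0.78). Hnrnpa0 had 3 footprints, all lower in KO. The strongest had 1.49 in KO and 2.04 in WT, and another, with 1.00 in WT, was listed at 0 in KO and has no fold.

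Single footprints with low ratios were found on Hnrnpl (-1.98; 0.0512 in KO and 0.207 in WT), Hnrnph1 (-1.87), Hnrnpm (-1.33) and Hnrnpc (-0.84). No KO library held those of Hnrnph1, Hnrnpm and Hnrnpc. Hnrnpul2, a relative of Hnrnpu, was the gene of this family with a higher sum in KO (0.47). Among the 10 hnRNP footprints that at least 1 KO library held, 4 were higher and 6 (60.0%) lower, beside 38.6% lower in the whole table, with a median of -0.06.

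The SR proteins, which promote exon recognition, had the highest share of lower footprints among the families with more than 1 footprint. Of 20 Srsf footprints on 7 of 11 annotated genes, 18 were lower in KO. At least 2 WT libraries held all 20 and at least 2 KO libraries held 7, so the others entered the table through WT alone. At the 2-fold mark 5 were lower, a share near the 24.2% of the whole table. The median log2 ratio was -0.41, and the median occupancy was 0.321 in KO and 0.440 in WT. All 7 footprints held by at least 2 libraries of both genotypes were lower in KO (median -0.34), where 31.5% of the whole table's footprints under that condition were. After centring on the median of all footprints, 6 of these 7 and 17 of the 20 were lower. No test is possible on these counts, and the family's median G+C content, a property that the ratio followed in the whole table, was 36.1% against 42.9% there.

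Srsf1, the founding SR protein and one known to control its own mRNA through its 3′ UTR, had 7 footprints between 3 and 1410 nt past the stop codon. Each was lower in KO. The sum was 2.33 in KO and 3.63 in WT (-0.64). The footprint held by all 6 libraries, at 87863925 to 87863994 of chromosome 11, had 0.695 and 0.879. Ratios of the footprints above 0 ran from -0.03 to -1.14, and no KO library held the one at -1.14. Another, with 0.378 in WT, was listed at 0 in KO.

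Srsf2 had 3 footprints with ratios between -0.29 and -0.34. These are close to each other although their WT values ran from 0.284 to 1.19, and the highest (chromosome 11, 116711862 to 116711931; 0.936 in KO) was held by all 6 libraries. Srsf6 had 4 lower footprints, from -0.08 to -1.28, with a sum of 0.851 in KO and 1.42 in WT. Srsf7 had 1 footprint in its 3′ UTR (0.467 and 0.665) and 1 in an intron (1.08 and 1.44, chromosome 17, 80604141 to 80604211). Both footprints of Srsf11 were at least 2-fold lower (-1.27 and -1.75), and no KO library held either. The footprints higher in KO were those of Srsf5 (0.235 and 0.226, a ratio of 0.05) and Srsf9 (0.280 and 0.142), and no KO library held that of Srsf9.

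**Figure D3:**
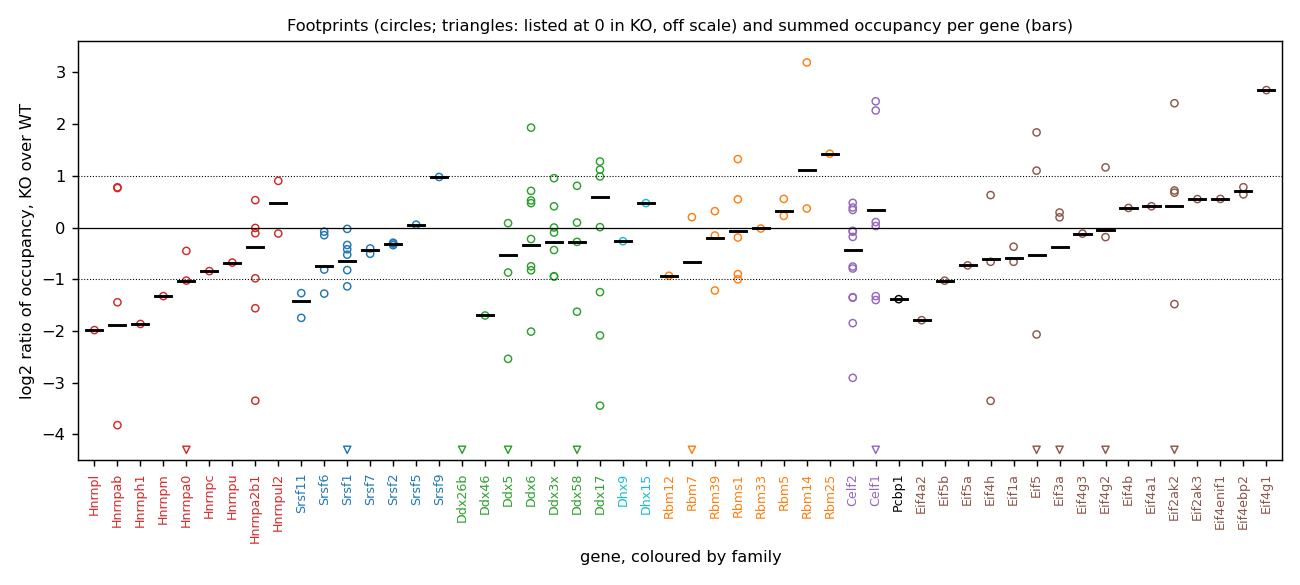
Log2 ratio of occupancy, KO over WT (vertical), for each gene of the families other than Pum (horizontal, coloured by family), with circles for footprints, triangles for footprints listed at 0 in KO and drawn off scale, and bars for the ratio of the gene's sums where the KO sum is above 0. The Srsf circles lie below 0 for 17 of 19 footprints, whereas those of Celf1, Ddx6, Ddx17 and Eif5 spread to both sides.

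The DEAD-box genes carried the most footprints, 33 on 7 of 38 annotated genes, with 14 higher and 19 lower in KO. Among the 21 that at least 1 KO library held, 14 were higher and 7 (33.3%) lower, near the 38.6% lower of the whole table under that condition. Ddx58, which encodes the viral RNA sensor RIG-I, had the strongest footprint of the family. Its occupancy was 6.12 in WT against 5.05 in KO (-0.28), and all 6 libraries held it (chromosome 4, 40151628 to 40151713). It lay in an annotated exon outside the coding sequence and the UTRs. The footprint with the sites printed above for miR-148a-3p and miR-29a-3p had 0.205 and 0.116 (0.81).

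Ddx17 and Ddx5, paralogous helicases that act in splicing and miRNA processing, differed in direction by sum. Ddx17 had 7.16 in KO and 4.76 in WT (0.59), and Ddx5 had 1.48 and 2.13 (-0.53). The higher sum of Ddx17 came from 2 of its 3 intronic footprints. Those at 79365924 to 79365986 and 79366119 to 79366192 of chromosome 15 had 3.27 and 2.82 in KO and 1.65 and 1.30 in WT (0.99 and 1.12). The remaining one, which no KO library held, was lower in KO (0.330 and 0.788; -1.25). In the 3′ UTR of Ddx17 the values were lower in both genotypes, with a KO range of 0.0227 to 0.394 and a WT range of 0.105 to 0.392.

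One of these 3′ UTR footprints, which carries a match to miR-155-5p, had 0.0227 in KO and 0.263 in WT (-3.45), and was held by all 3 WT and no KO library. For Ddx5, the footprint in coding sequence had 1.27 and 1.20 (0.08), and the 3 in the 3′ UTR were lower in KO, 1 of them listed at 0 there. No KO library held any of these 3. The coding-sequence footprint also overlapped the gene AL603664.2 on the same strand, so its gene is uncertain. As assigned here, the strongest footprints of both paralogs lay outside the 3′ UTR and were held by 2 or 3 KO libraries.

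Ddx6, a helicase of P-bodies that works with the miRNA repression machinery, had 8 footprints, 4 higher and 4 lower. Its sum was 2.92 in KO and 3.70 in WT. The footprint with the lowest ratio, at 44445242 to 44445307 of chromosome 9, had 0.363 and 1.47 (-2.01), and the one with the highest, 1513 nt past the stop codon, had 0.209 and 0.0536 (1.93). Ddx3x, a helicase of translation initiation, had 7 footprints with KO values of 0.110 to 0.375 and WT values of 0.118 to 0.722, none 2-fold apart. Ddx46, a splicing helicase, had 0.273 and 0.891 (-1.70), and no KO library held it. Ddx26b, a relative of an Integrator subunit, was listed at 0 in KO with 0.773 in WT.

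The DEAH-box family was barely represented, with 2 of 16 annotated genes and 1 footprint each. Dhx15, a helicase that takes apart the spliceosome, had 0.752 in KO and 0.542 in WT. Dhx9, which unwinds double-stranded RNA, had 0.363 and 0.436. A single KO library held each.

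The Rbm genes, a mixed group named for an RNA-binding motif, had 17 footprints on 8 of 41 annotated genes, 9 higher and 8 lower in KO (median 0.20). Rbms1, which binds AU-rich DNA and RNA, had the highest sum, 7.45 in KO and 7.81 in WT over 5 footprints. Its strongest had 3.40 and 2.33 (0.55) at 60590079 to 60590153 of chromosome 2, and the next had 1.46 and 2.74 (-0.90) at 60590843 to 60590912. Rbm14, a nuclear coactivator, had the highest ratio of a single footprint in the families, with 1.15 in KO and 0.124 in WT (3.19), held by 2 KO and 1 WT libraries. It lay at 4801037 to 4801118 of chromosome 19, and the gene's other footprint (1.32 and 1.02) lay in the 3′ UTR of a different annotated transcript.

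Rbm25, a splicing regulator, had 1.92 in KO and 0.713 in WT (1.43) in the footprint with the miR-21a-5p match, held by 2 libraries of each genotype. The splicing factor Rbm5 had 2 higher footprints (0.23 and 0.55), and those of Rbm39 lay between -1.22 and 0.32. No KO library held the Rbm5 footprint at 0.55 or the Rbm39 footprint at -1.22. Rbm33 was near equal (0.316 and 0.321). Rbm7, a cofactor of the nuclear exosome, had 1 footprint in coding sequence (0.276 and 0.240) and 1 in its 3′ UTR, listed at 0 in KO. The footprint counted for Rbm12 (0.607 and 1.16) lay in a region that Cpne1 and Nfs1 share on the same strand, so its gene is uncertain.

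Of the proteins that bind 3′ UTRs themselves, Celf1 and Celf2 carried 19 footprints in 3′ UTRs of 6135 and 7122 nt. Celf2 had 12, the most of any gene here, with 3 higher and 9 lower in KO and sums of 6.01 and 8.12 (-0.43). Its footprint held by all 6 libraries (chromosome 2, 6464615 to 6464681) was higher in KO, at 1.43 against 1.09. A footprint with a miR-29a-3p match had the lowest ratio of the gene, -2.91 (0.128 and 0.967), and no KO library held it. Celf1 had a higher sum in KO (6.33 and 5.00), to which the footprint with the miR-148a-3p match gave 2.50 in KO and 0.459 in WT (2.44). The other footprints of Celf1 ran from a ratio of -1.40, in a footprint that no KO library held, to 2.26. In addition, 1 with 0.707 in WT was listed at 0 in KO.

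Pum2 encodes a Pumilio protein, which binds a short motif in 3′ UTRs and represses the mRNA. Its 6 footprints split evenly, from -2.17 to 2.29, with near equal sums of 2.83 and 2.97. Pcbp1, a poly(C)-binding protein, had a single weak footprint (0.0500 and 0.133), and no footprint of a Cpeb gene was in the table.

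**Figure D4:**
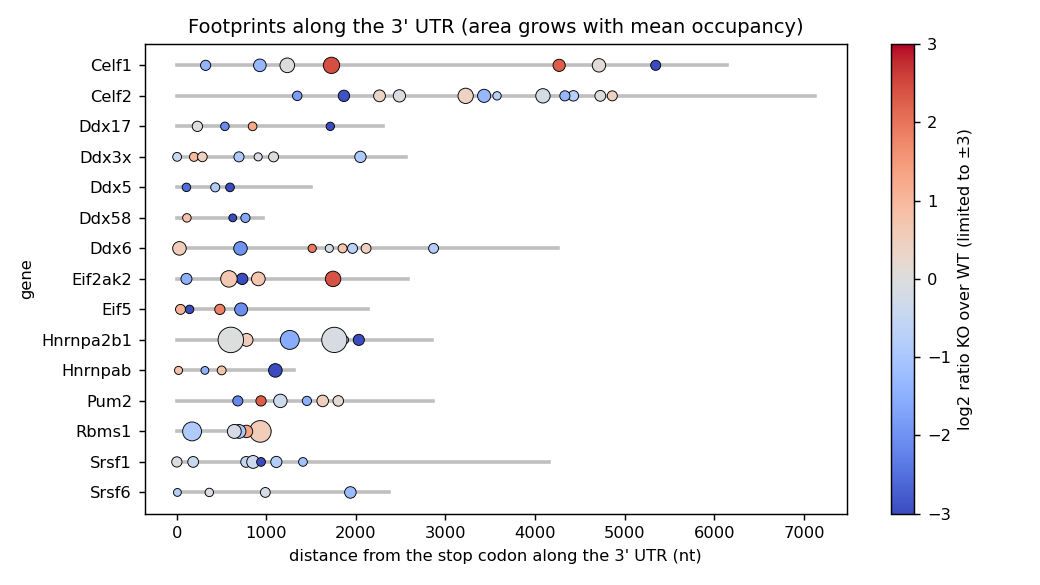
Footprints along the 3′ UTR of the genes with at least 4 footprints, with the distance from the stop codon in nt (horizontal) and the gene (vertical). Grey lines show the annotated 3′ UTR, circle area grows with mean occupancy, and colour gives the log2 ratio limited to 3 in either direction. The 2 largest circles of Hnrnpa2b1 are pale grey, the colour of ratios near 0, and circles of opposite colour lie next to each other on Celf1, Eif2ak2 and Ddx6.

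The Eif genes, which include initiation factors, the kinases that phosphorylate eIF2 and binding proteins of eIF4E, gave 31 footprints on 16 of 54 annotated genes. In KO 16 were higher and 15 lower, with a median of 0.20. Of the 20 held by at least 1 KO library, 14 were higher and 6 (30.0%) lower, where 38.6% of the whole table were lower. Within the cap-binding complex, Eif4g1, the scaffold, had the highest gene ratio of the families, with 1.72 in KO and 0.271 in WT (2.66) in a footprint of 72.6% G+C held by 2 libraries of each genotype. Its relative Eif4g3 was near equal (1.25 and 1.36). Eif4g2, which takes part in cap-independent initiation, was near equal in the footprint held by all 6 libraries (0.256 and 0.292).

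The other footprints of Eif4g2 went opposite ways, and no KO library held either. At 118215467 to 118215534 of chromosome 7 the KO value was 0.788 and the WT value 0.351, and at 118215214 to 118215276 the footprint was listed at 0 in KO. The helicase paralogs Eif4a1 and Eif4a2 differed in direction. Eif4a1 had 0.360 in KO and 0.271 in WT (0.41), held by 3 KO and 2 WT libraries. Eif4a2 had 0.918 and 3.18 (-1.79), held by 2 KO and 3 WT libraries. The footprint of Eif4a1 had 58.2% G+C and that of Eif4a2 had 35.3%. Eif4ebp2, which holds eIF4E back, was higher in both of its footprints (0.78 and 0.64).

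Eif2ak2 encodes PKR, the kinase that senses double-stranded RNA and phosphorylates eIF2. It had 5 footprints with sums of 5.49 in KO and 4.11 in WT (0.42). The highest ratio was that of the footprint at 79252703 to 79252769 of chromosome 17 (2.19 and 0.412; 2.40), and those at 79253863 to 79253934 (1.87 and 1.17) and at 79253447 to 79253694 (1.18 and 0.716) were also higher. No KO library held the remaining pair, 1 of which, with 1.09 in WT, was listed at 0 in KO. Eif2ak3, the kinase PERK, had 0.691 and 0.472, and no KO library held it.

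Eif5, which triggers GTP hydrolysis at the start codon, had 4 footprints within 720 nt of the stop codon. Those at 44 and 483 nt were higher in KO (1.10 and 1.84), the one at 720 nt was lower (0.310 and 1.31, -2.07), and the one at 145 nt was listed at 0 in KO. The higher ones were held by 2 KO libraries each and the lower ones by none. Eif1a, a factor of start codon scanning, was lower in both footprints (1.13 and 1.78 in the stronger). Eif3a, the largest eIF3 subunit, had ratios of 0.29 and 0.20 and a footprint listed at 0 in KO. Eif5b, which joins the ribosomal subunits, had 0.661 and 1.35, and no KO library held its footprint. Eif5a had 0.0507 and 0.0853, Eif4b had 0.0911 and 0.0697, and the 3 footprints of Eif4h summed to 0.260 and 0.396. Eif4enif1, which carries eIF4E into the nucleus, had 0.596 and 0.406.

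Some properties that the symbol rule did not use were shared by most footprints. Of the 152, 144 (94.7%) overlapped an annotated 3′ UTR, 4 lay in introns, 2 in coding sequence and 2 in other exons, and 96.7% of the whole table lay in 3′ UTRs. The deposited values are named 3′ UTR occupancy, so these shares do not show how Ago binding was spread over the parts of a gene. The shortest of the 152 footprints spanned 63 nt and the longest 248 nt, and the median of 72 nt was that of the whole table. Within the annotated 3′ UTR the footprints leaned towards the stop codon, with 67 in the first of 3 equal parts, 49 in the middle and 28 in the last. The same split was not made for the whole table, so this lean cannot be called a trait of the families. The median log2 ratio was -0.43, -0.22 and 0.17 in these parts, and the median G+C content 38.6%, 40.0% and 42.3%. Of the genes, 24 (44.4%) held 1 footprint and 15 (27.8%) at least 4, against 46.1% and 24.6% of all genes.

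The family footprints were poorer in G+C than the whole table, with a median of 40.0% against 42.9%. The table was cut at its quartiles of G+C content, 36.4%, 42.9% and 50.0%. In the bin with the least G+C, the median ratio was -0.63 for 52 family footprints and -0.61 for the whole table. In the next bins it was -0.55 against -0.24, then -0.13 against 0.19. In the bin with the most G+C it was 0.39 for 20 family footprints and 0.47 for the whole table. The families lay below the table in each of the 4 bins. Spearman's rho between G+C and the ratio was 0.279 over the 152 footprints, and footprints of a gene share their libraries and neighbouring sequence. The part of base composition in the KO to WT ratios was not tested.

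**Figure D5:**
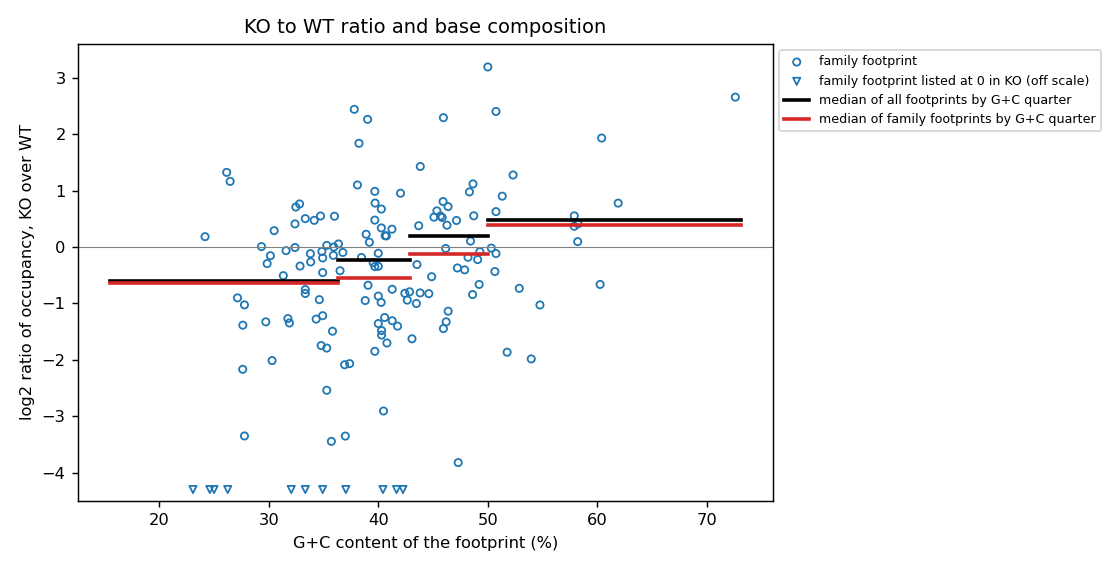
Log2 ratio of occupancy, KO over WT (vertical), against the G+C content of the footprint in percent (horizontal), with circles for family footprints and triangles, off scale, for those listed at 0 in KO. Red and black lines give the median of the families and of the whole table in each of 4 bins cut at the table's quartiles of G+C content, and both climb from the first bin (-0.63 and -0.61) to the last (0.39 and 0.47).

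Matches to miRNA seeds were counted for 25 miRNAs on the transcript's strand. A 7-nt match was present in 27 family footprints, 17.8% (Wilson interval 12.5% to 24.6%), and in 19.6% of the whole table. The seed of miR-101a-3p had the most, with 4 footprints (2.63%, against 0.973% of the table), on Celf2, Ddx3x, Eif4g3 and Hnrnpa0. Those of miR-15a-5p, miR-19b-3p, miR-29a-3p and miR-148a-3p had 3 each. These are not all separate footprints. A single weak footprint of Eif4h (0.0839 in KO and 0.134 in WT) counted for miR-19b-3p, miR-29a-3p and miR-148a-3p, and its miR-19b-3p and miR-148a-3p matches overlap. The Ddx58 footprint counted for both miR-29a-3p and miR-148a-3p. The 27 footprints with a match had a median log2 ratio of -0.51 and those without a match -0.28, against -0.02 and -0.04 in the whole table.

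The AU-rich pentamer ATTTA, a mark of unstable mRNAs, was found in 27 family footprints (17.8%, Wilson interval 12.5% to 24.6%) and in 11.9% of the whole table. This pentamer holds no G or C, and the family footprints were poorer in G+C (median 40.0% against 42.9%). The part of base composition in its share was not tested, and the footprints are not independent. The Quaking core ACTAA was found in 7.89% and 7.83%, and the polyadenylation signal AATAAA in 6.58% and 7.00%. The Pumilio motif TGTANATA, searched as the others on the transcript's strand, was found in 5 footprints (3.29%, against 3.81%), on Ddx6, Pum2, Rbm39, Srsf1 and Srsf5. A Pumilio gene thus carried a Pumilio motif under an Ago footprint, and the stretch is printed with the motif in capitals.
Pum2, Pumilio motif, chr12:8757213-8757242, plus strand: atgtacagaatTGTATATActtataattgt

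The ratio of this Pum2 footprint was -2.17 (0.130 and 0.589), and 2 WT libraries and no KO library held it.

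A list of 52 other genes of RNA processing, outside the 10 families, had 24 genes with footprints. In KO 7 were higher by summed occupancy (29.2%, against 47.8% of all genes) and 17 lower. At least 2-fold higher were 3 (12.5%) and lower 4 (16.7%), near the 11.7% and 17.9% of all genes. The median was -0.24, against -0.36 for the 54 family genes and -0.04 for all genes. Those at least 2-fold higher included Paip2 (0.183 in KO and 0.0658 in WT) and Sf3b3, and the lowest above 0 were Tra2b (0.708 and 2.72), Nono and Tardbp. Tra2b, itself an SR-like splicing factor, had a log2 ratio of -1.94.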

How the data were processed

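Per the series design text, reads were split by length, the mRNA pool was aligned to mouse build mm9, and footprints were taken around peaks of read clusters. The submitters' processing notes name Bowtie 0.12.8 and bedtools. The deposited occupancy is a ratio to RNA-Seq expression, made by the authors as 1 value per genotype, beside the number of libraries with the footprint. How libraries were combined and scaled is not stated in these sources, and the depth is unknown.

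Coordinates were counted from 1 and placed on GENCODE vM1 (NCBIM37, the mm9 assembly) by strand with an overlap of at least 1 nt. Each footprint took the first class overlapped, with 3′ UTR before coding sequence, then 5′ UTR, then any other exon and last intron. Distances from the stop codon use the footprint's middle and the coding transcript whose 3′ UTR holds most of the gene's footprints. Sequences were read with pysam 0.24.0. The pseudocount is 50% of the smallest value above 0.

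With 1 value per genotype no test was run. Counts and medians are set beside those of the whole table, and the ratios and site search were tested on simulated data. Named genes were the up to 3 strongest of each family, those with the 5 highest or 5 lowest ratios (1 footprint per gene, neither genotype at 0, mean occupancy no less than 0.425, the table median), and genes with a footprint in all 6 libraries, with at least 4 footprints or with a footprint listed at 0 in KO. Other genes are given to account for each family and were named with their values seen. Some results that the rule names are not reported here. The families, lists and tests were chosen with earlier results of these data known. Alternatives were other pseudocounts, filters on value, libraries and gene part, centring, and other site definitions.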

Additional observations from a re-analysis of the deposited data

How the results depend on the processing

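No paired analysis was possible because the table holds 1 value per genotype, so libraries could be neither paired nor left out. With a pseudocount of 1, the 14 footprints at least 2-fold higher and 47 lower in KO became 3 and 5, the 3 genes higher and 11 lower became 1 and 1, and the median log2 ratio went from -0.30 to -0.075. With a pseudocount of 0.1, 7 genes were lower. With only the footprints whose mean occupancy reached the table median, 9 footprints were higher and 18 lower. Among the 43 footprints held by at least 2 libraries of both genotypes, 9 were higher and 2 lower, beside 575 and 110 of 2196 in the whole table. In this set 5 genes were higher and 1 lower, and the median turned to 0.37. Among footprints held by at least 1 KO library, a set chosen after the data were examined, 13 were higher and 11 lower. In that set 5 genes were higher and 3 lower, and the median turned to 0.0072. By construction, both sets leave out the 51 footprints that no KO library held, of which 46 were lower and 5 higher in KO. The share in KO libraries was 66.4% for at least 1 library, beside 4518 of 6270 footprints in the whole table. For all 3 it was 9.21%, beside 12.9%. The share with a miRNA match was 44.7% for 6 nt, 4.61% for 8 nt and 11.8% in the central 46 nt. In the whole table these shares were 48.7%, 7.86% and 12.9%. Of 32 named genes, 6 crossed the 2-fold mark with a pseudocount of 1 and 6 with the strongest footprint in place of the sum. The cause was not tested.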
